A study of Macaca mulatta with 12 samples.

Results

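The genes followed here are 8 that encode the prion protein, the amyloid precursor protein and proteins tied to amyloid and tau: PRNP, APP, APLP1, APLP2, MAPT, PSEN2, APOE and BACE1. They were read in the dorsal raphe nucleus, the brainstem site of serotonin neurons, of 12 female rhesus macaques (Macaca mulatta). Members were chosen by name: every probe set of the array whose only gene symbol is one of the 8 counted. This gave 11 of the array's 12625 probe sets, for 7 genes, and 10 of the 11 passed the filter on dim values that left 7535 probe sets for testing. BACE1, the beta-secretase that makes the first cut towards amyloid-beta, had no probe set named for it alone. PRNP was on the list because it had already been seen to be lower in the hormone groups of these data, so its difference from placebo is described below and not tested.

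All the monkeys had been ovariectomized (OVX) and had worn Silastic capsules under the skin for 1 month, so the loss of the ovaries is shared by every group. The groups were estrogen, progesterone, estrogen plus progesterone, and placebo, with 3 monkeys in each and 1 chip per monkey. The titles of the progesterone arrays carry the codes EP1 to EP3 and their source names P1 to P3, and the source names were followed. The chip was a human Affymetrix array of the U95 type read with macaque RNA, and since probes may match macaque transcripts unequally, levels are compared between groups and never between probe sets.

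The prion protein is a glycolipid-anchored protein of the neuronal surface whose misfolded form spreads in prion disease. The amyloid precursor protein is cut either by alpha-secretases within the amyloid-beta sequence, or by the beta-secretase BACE1 and then gamma-secretase, an enzyme built around presenilin, which releases amyloid-beta. Tau, the product of MAPT, binds microtubules in axons and, when heavily phosphorylated, builds up as tangles. Apolipoprotein E, made mostly by astrocytes in brain, carries lipid and binds amyloid-beta.

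The tissue label was checked against serotonin-neuron genes. SLC6A4, the serotonin transporter, read 220 to 495 and FEV, a transcription factor of serotonin neurons, read 104 to 289 over the 12 arrays. The probe set of TPH1, a tryptophan hydroxylase, read 0.527 to 3.6, near the floor of the array, and no single-symbol probe set stood for TPH2, the form used by brain. High 28S ribosomal control signal marked array 1 of the estrogen group (841) and array 1 of the combined group (1354), against at most 179 elsewhere. Placebo array 1 lay at −33.8 on principal component 2, below every other array.

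PRNP was lower in all 3 hormone groups than in placebo. Its probe set read 518, 743 and 512 on the estrogen arrays, 663, 647 and 514 on the progesterone arrays, 507, 417 and 600 on the estrogen plus progesterone arrays, and 1317, 747 and 989 on the placebo arrays. None of the 9 hormone arrays reached the lowest placebo array, although estrogen array 2 and placebo array 2 lay close together. The means were 591 ± 132, 608 ± 81.5 and 508 ± 91.3 with estrogen, progesterone and both hormones, against 1017 ± 286 with placebo (SD, n = 3 each), which is 58.1%, 59.7% and 49.9% of the placebo mean. In bulk tissue, fewer cells of a type and less RNA per cell cannot be told apart.

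On the log2 scale after normalization the PRNP difference from placebo was −0.74 for estrogen, −0.69 for progesterone and −0.97 for their combination, each with a standard error of 0.23, and −0.80 for the mean of the 3 hormone groups. The comparisons share the placebo arrays. Counted from the most negative, the differences of the separate groups ranked 120, 238 and 34 among the 7535 probe sets tested. Arrays that lay wholly below placebo were found for 3.29% of tested probe sets with estrogen, 8.1% with progesterone and 4.62% with both. All 9 hormone arrays lay below all 3 placebo arrays for 12 probe sets, or 0.159%, and PRNP is among them by the way it was chosen. Placebo array 1 was the highest PRNP reading of the 12. Without it the 3 differences were −0.56, −0.51 and −0.78, and without placebo array 2 they were −0.95, −0.89 and −1.17.

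**Figure D1:**
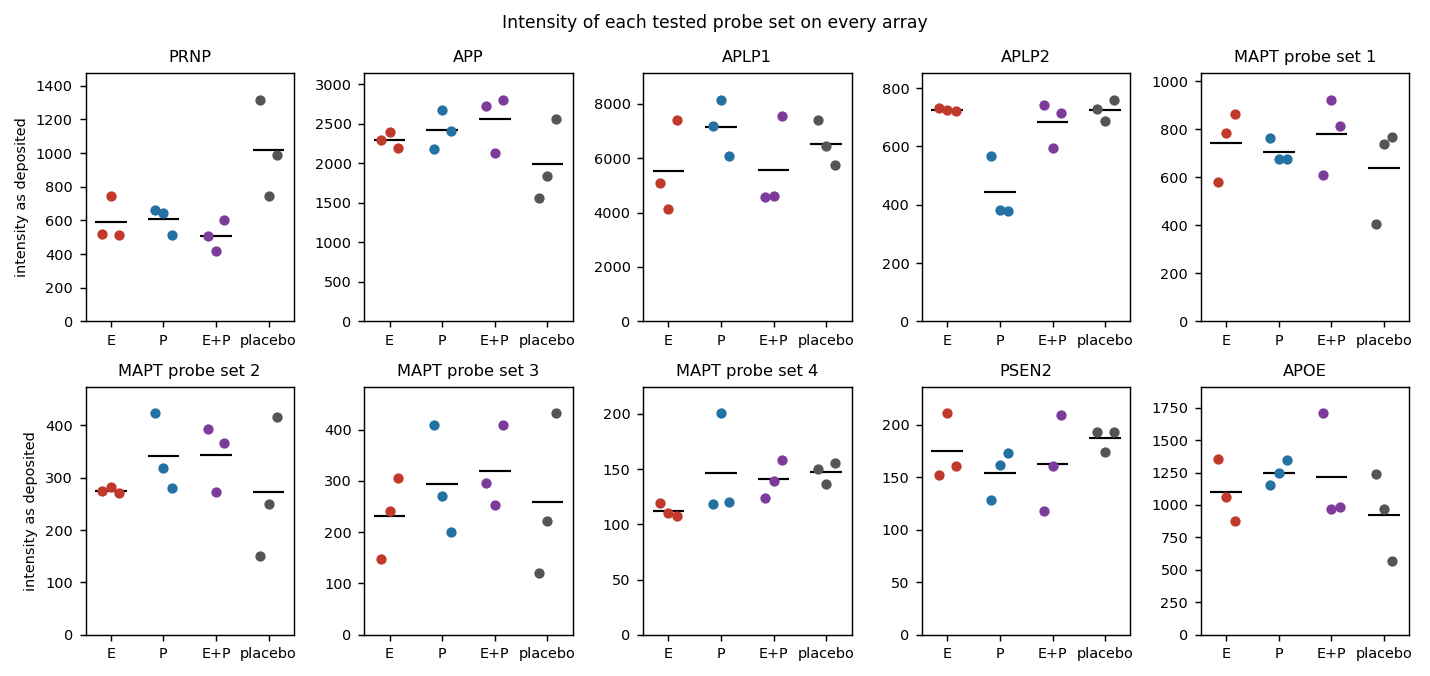
Deposited intensity (linear axis from 0) of the 10 tested member probe sets, with a point for each array and a bar at each group mean, for estrogen (E), progesterone (P), both hormones (E+P) and placebo. The PRNP points of the 9 hormone arrays lie between 417 and 743, all below the placebo points.

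The hormone groups are set against each other for PRNP as a description with no test. The choice of the gene used the hormone arrays as well as placebo. Being low in all 3 hormone groups also limits how far these groups can differ. Both hormones together averaged 508 ± 91.3 and estrogen alone 591 ± 132, a log2 difference of −0.22 ± 0.23 (SE). Against progesterone alone the difference with both hormones was −0.28 ± 0.23. Estrogen against progesterone gave −0.051 ± 0.23. The arrays of the 3 hormone groups overlapped. The PRNP interaction of the hormones, the difference of differences on the log2 scale, was 0.47 and is likewise given with no test.

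APP, the source of amyloid-beta, did not separate from placebo. It read 2289, 2399 and 2191 with estrogen, 2176, 2668 and 2412 with progesterone, 2729, 2134 and 2803 with both hormones, and 1562, 1843 and 2557 with placebo. Every hormone group overlapped the placebo range through placebo array 3, while placebo array 1 was the lowest of the 12. The log2 differences from placebo were 0.25 (95% interval −0.22 to 0.72), 0.27 (−0.19 to 0.74) and 0.42 (−0.049 to 0.88), with limma adjusted p of 0.9999, 0.802 and 0.999. Leaving out placebo array 1 brought them to 0.052, 0.075 and 0.21, and leaving out placebo array 3 to 0.48, 0.50 and 0.65.

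APLP1, a brain-specific relative of APP, varied widely within groups. Its arrays read 5069, 4140 and 7408 with estrogen, 7175, 8138 and 6062 with progesterone, 4574, 4592 and 7530 with both hormones, and 7387, 6455 and 5752 with placebo. The groups overlapped. The log2 differences from placebo were −0.29, −0.036 and −0.29 (SE 0.25 each, lowest limma adjusted p = 0.989). Leaving out 1 array at a time moved the estrogen difference between −0.54 (without its array 3) and −0.12 (without its array 2), and that of both hormones between −0.53 (without its array 3) and −0.15 (without its array 1).

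APLP2, the broadly expressed relative of APP, was lower with progesterone alone on every array. It read 568, 381 and 379 there, against 730, 686 and 760 with placebo. The estrogen arrays read 731, 724 and 722 and the arrays with both hormones 743, 596 and 715, and both of these groups overlapped placebo. The progesterone mean was 442 ± 109 and the placebo mean 725 ± 36.9 (SD, n = 3 each). The log2 difference was −0.71 ± 0.18 (SE, 95% interval before adjustment −1.10 to −0.31), and it did not pass after adjustment over all tested probe sets (limma adjusted p = 0.325). With estrogen the difference from placebo was 0.012 (interval −0.38 to 0.41) and with both hormones −0.076 (−0.47 to 0.32), or −0.15 without both arrays of high ribosomal signal.

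The same 3 progesterone arrays also lay below the other hormone groups for APLP2, where 15.7% (both hormones against progesterone) and 13.9% (estrogen against progesterone) of tested probe sets were free of overlap. Both hormones against progesterone gave 0.63 ± 0.18 (interval 0.24 to 1.02, limma adjusted p = 0.413), and estrogen against progesterone gave 0.72 ± 0.18 (interval 0.33 to 1.11, adjusted p = 0.332). These comparisons and the one with placebo share the progesterone arrays. The interaction of the 2 hormones was 0.62 ± 0.25 (interval 0.063 to 1.18, limma adjusted p = 0.957). Over all alternatives run, the difference of progesterone from placebo stayed between −0.89 and −0.61, and its lowest adjusted p was 0.128. Summed intensity of serotonin-neuron markers (6 of 9 listed genes past the filter) was 780 to 950 on the progesterone arrays, against 1051 to 1298 on the placebo arrays, and 5 of their 6 probe sets were lower with progesterone. TPH1, which is on that list, was near the floor on all 12 arrays, and TPH2, the form used by brain, had no single-symbol probe set. The part of these markers in the APLP2 result was not tested.

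**Figure D2:**
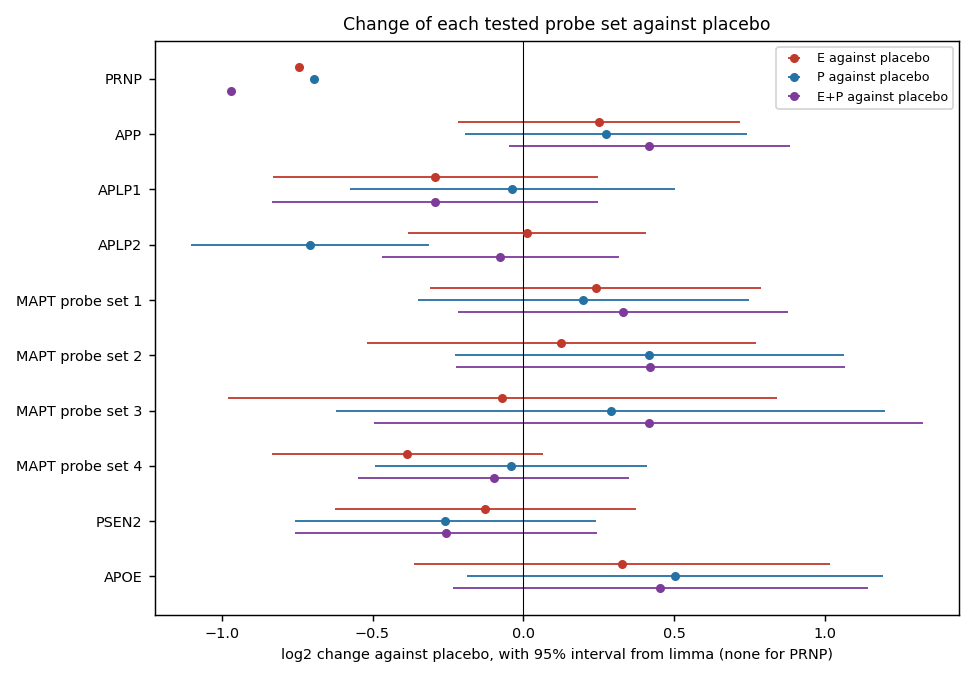
Log2 difference from placebo of the 10 tested member probe sets with estrogen (E), progesterone (P) and both hormones (E+P), with points for the estimate and lines for the 95% interval of the limma fit before adjustment, and no interval for PRNP, which was chosen for its difference. The APLP2 interval with progesterone, −1.10 to −0.31, lies wholly below 0, with an adjusted p of 0.325.

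MAPT had 5 probe sets, numbered here by brightness, and they did not move together. Probe set 1 read 579, 784 and 862 with estrogen, 763, 676 and 677 with progesterone, 607, 922 and 812 with both hormones, and 404, 738 and 767 with placebo. All groups overlapped, and the log2 differences from placebo were 0.24, 0.20 and 0.33 (SE 0.25 each). Probe set 2 averaged 275.5 ± 6.29, 341 ± 74.2 and 344 ± 63.3 in those hormone groups, against 272 ± 135 with placebo, with log2 differences of 0.13, 0.42 and 0.42 (SE 0.30 each). Probe set 3 averaged 232 ± 79.95, 294 ± 106 and 319 ± 80.5, against 259 ± 159 with placebo (SD, n = 3 each), with log2 differences of −0.070, 0.29 and 0.41 (SE 0.42 each). None of these passed (lowest limma adjusted p over the 4 tested probe sets 0.773).

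Placebo array 1 was the lowest of the 12 arrays for MAPT probe sets 1, 2 and 3. Without it the differences of probe set 1 from placebo were −0.049, −0.089 and 0.041 with estrogen, progesterone and both hormones, those of probe set 2 were −0.20, 0.087 and 0.089, and those of probe set 3 were −0.47, −0.11 and 0.014. The direction of these probe sets against placebo is thus not settled by the arrays at hand. Without both arrays of high ribosomal signal, probe set 1 with estrogen gave 0.38 and probe set 3 with estrogen 0.24.

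MAPT probe set 4 ran differently. It read 119, 110 and 108 with estrogen, 118, 201 and 121 with progesterone, 124, 140 and 159 with both hormones, and 150, 136 and 156 with placebo. The estrogen arrays all lay below the placebo arrays, as for 3.29% of tested probe sets, and the difference of −0.38 ± 0.21 (SE, 95% interval −0.84 to 0.066) did not pass (limma adjusted p = 0.9999). Over the 12 arrays, Pearson's r between normalized log2 values was 0.56, 0.68 and 0.85 among probe sets 1, 2 and 3, but −0.15, −0.014 and 0.16 between them and probe set 4. These coefficients describe arrays that share their groups and carry no test. Probe set 5 read 3.35 to 26.7, under the filter, and no difference is given for it.

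**Figure D3:**
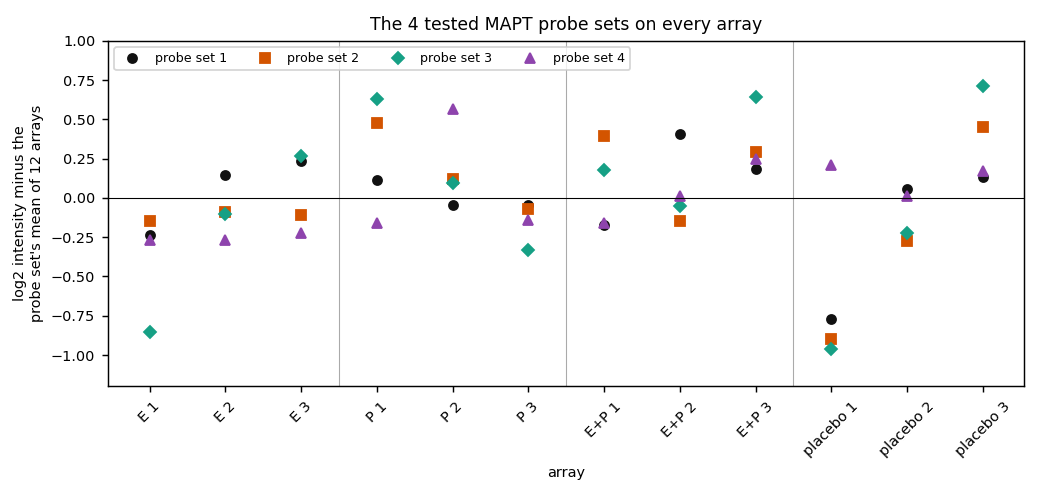
Normalized log2 intensity of MAPT probe sets 1 to 4 on each of the 12 arrays, each probe set centred on its own mean, arrays ordered by group as estrogen (E), progesterone (P), both hormones (E+P) and placebo. Probe sets 1, 2 and 3 are lowest on placebo array 1, and probe set 4 is not.

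PSEN2, a presenilin of gamma-secretase, read 152, 211 and 161 with estrogen, 128, 162 and 173 with progesterone, 118, 160 and 210 with both hormones, and 193, 174 and 193 with placebo. The hormone arrays spread more widely, and the progesterone arrays all lay just under the lowest placebo value on the deposited scale but overlapped it after normalization. The log2 differences were −0.13, −0.26 and −0.26 (SE 0.23 each, limma adjusted p = 0.9999, 0.827 and 0.999). The estrogen difference ran from −0.26 without estrogen array 2 to −0.0068 without estrogen array 1, and that of both hormones from −0.47 without its array 3 to −0.041 without its array 1. With progesterone it was −0.13 without progesterone array 1.

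APOE read 1353, 1062 and 877 with estrogen, 1157, 1247 and 1345 with progesterone, 1707, 966 and 982 with both hormones, and 1240, 970 and 567 with placebo. Placebo array 3 was the lowest of the 12 and estrogen plus progesterone array 1, an array of high ribosomal signal, the highest. The log2 differences from placebo were 0.33, 0.50 and 0.45 (SE 0.32 each, limma adjusted p = 0.9999, 0.730 and 0.999). Without placebo array 3 they were 0.022, 0.20 and 0.15, and without placebo array 1 they were 0.55, 0.73 and 0.68. When the pair of high-ribosomal arrays was left out, the difference was 0.12 with estrogen and 0.16 with both hormones. The summed intensity of 10 of 10 astrocyte markers was 15685 to 17083 with estrogen, 17261 to 18239 with progesterone and 16302 to 17862 with both hormones, against 14345 to 15680 with placebo. For these genes, 5, 4 and 6 of their 11 probe sets were lower than placebo with estrogen, progesterone and both hormones, and the median log2 differences were 0.025, 0.084 and −0.020. GFAP, the astrocyte filament gene, read 940 to 1310 on the hormone arrays, against 1294 to 1425 with placebo. SLC1A2, the astrocyte glutamate transporter, read 293 on placebo array 1 and 3373 to 5208 on the other 11 arrays. Their part in the APOE values was not tested.

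**Figure D4:**
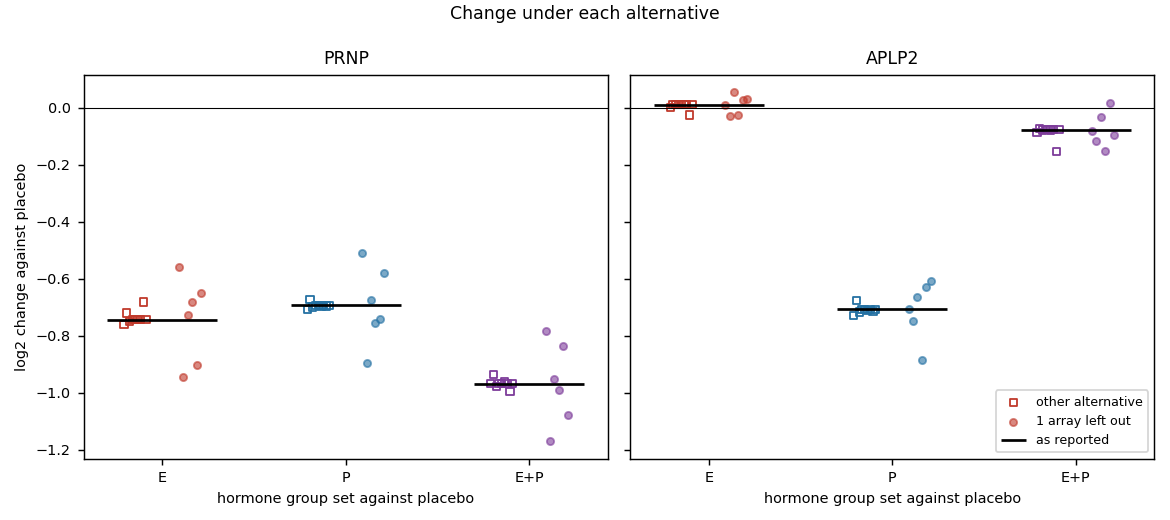
Log2 difference from placebo of PRNP and APLP2 with estrogen (E), progesterone (P) and both hormones (E+P), where the bar is the value reported, squares are other processing settings and circles leave out 1 array each. PRNP stays below 0 throughout, which adds no support, since it was chosen for being lower and its hormone arrays all lie below placebo. APLP2 with progesterone stays between −0.89 and −0.61.

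Counted together, 0 of the 9 tested member probe sets other than PRNP passed the adjusted threshold of limma with estrogen, progesterone or both hormones against placebo, where 0%, 0.0398% and 0.0133% of all tested probe sets did. At an unadjusted p under 0.05 the counts were 0, 1 (APLP2) and 0 of 9, beside 3.16%, 8.24% and 3.38% of all tested probe sets. Arrays free of overlap with placebo were found for 1 of 9 with estrogen (MAPT probe set 4), 1 of 9 with progesterone (APLP2) and 0 of 9 with both hormones, beside 6.13%, 16.7% and 8.92% of all tested probe sets, so these counts do not set the members apart. The median log2 difference of the 9 was 0.012, 0.20 and 0.33, beside −0.0047, 0.0022 and −0.0031 over all tested probe sets. The medians with progesterone and both hormones are the values of MAPT probe set 1. Without placebo array 1 that probe set gave −0.089 and 0.041. Several of the 9 belong to MAPT, so the medians do not show a shift of the genes as a group. Among the hormone groups, 0 of the 9 other than PRNP passed in each comparison, where 0% (both hormones against estrogen), 0.0133% (both hormones against progesterone) and 0.0265% (estrogen against progesterone) of all tested probe sets did. At an unadjusted p under 0.05 these counts were 0, 1 and 1 of 9, APLP2 in both cases, beside 2.87%, 7.71% and 8.45% of all tested probe sets. Arrays free of overlap were found for 1, 1 and 3 of 9, beside 6.74%, 15.7% and 13.9%. These were MAPT probe set 4 for both hormones against estrogen and APLP2 for both hormones against progesterone. For estrogen against progesterone they were APLP2 with MAPT probe sets 2 and 4, where the MAPT probe sets overlap on the deposited scale. For the mean of the 3 hormone groups against placebo and for the interaction, 0 of 9 passed, where 0.0133% and 0% of all tested probe sets did, and the counts at an unadjusted p under 0.05 were 0 and 1 (APLP2) of 9, beside 4.26% and 4.99% of all tested probe sets.

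Beyond the members, 8 lists of genes tied to these proteins or to neurodegeneration held 116 symbols, with clusterin entered both as CLU and as APOJ. Of the listed genes, 84 were tested with 117 probe sets. None of the 117 passed the adjusted threshold of limma against placebo in any hormone group. At an unadjusted p under 0.05, 3 were counted for estrogen, 11 for progesterone and 8 for the combination out of 117, beside 3.16%, 8.24% and 3.38% of all tested probe sets. The median log2 differences of −0.026, −0.015 and 0.020 lay close to those over all tested probe sets. Arrays lay wholly above placebo for 7, 16 and 13 of the 117 and wholly below for 3, 6 and 7, beside 2.84%, 8.56% and 4.3% above and 3.29%, 8.1% and 4.62% below among all tested probe sets.

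Among the alpha-secretases, the enzymes that cut APP within the amyloid-beta sequence, 1 of 2 tested ADAM10 probe sets lay above placebo with progesterone. It read 250, 188 and 232 there, against 134, 135 and 161 with placebo, a log2 difference of 0.61 ± 0.28 (SE, limma adjusted p = 0.597), and the other ADAM10 probe set gave 0.25 (adjusted p = 0.877). ADAM17, another such enzyme, averaged 128 ± 20.3, 134 ± 55.8 and 109 ± 7.47 with estrogen, progesterone and both hormones, against 121 ± 30.3 with placebo on its brighter probe set. Its dimmer probe set read 52.1, 39.7 and 47.9 with both hormones, all below the placebo arrays at 53.9, 66.8 and 68.9, and did not pass (limma adjusted p = 0.999). NCSTN, the nicastrin subunit of gamma-secretase, averaged 898 ± 139, 934.5 ± 115 and 890 ± 90.1, against 936 ± 51.5 with placebo. BACE2 had no probe set of 1 symbol.

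Of the enzymes that break down amyloid-beta, IDE averaged 120 ± 47.3, 109 ± 42.1 and 96.8 ± 34.9 with estrogen, progesterone and both hormones, against 106 ± 26.2 with placebo. MME, which encodes neprilysin, averaged 122 ± 78.8, 188 ± 49.9 and 111 ± 27.3, against 158 ± 19.1 with placebo. With both hormones the MME arrays read 130, 79.7 and 123, all below the placebo arrays at 148, 180 and 146, and the difference did not pass (limma adjusted p = 0.999). The other hormone groups overlapped placebo for both enzymes.

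Among lipoprotein genes, SORL1, a sorting receptor that directs APP away from the compartments where it is cut, read 1440, 1723 and 1627 with estrogen, against 479, 1087 and 1145 with placebo on its brighter probe set. The log2 difference was 0.91 ± 0.29 (SE, limma adjusted p = 0.9999), and without placebo array 1 it was 0.50. With both hormones this probe set read 1577, 1172 and 1193, also above placebo. That difference was 0.62 (limma adjusted p = 0.999), or 0.22 without placebo array 1. With progesterone it overlapped placebo. The dimmer SORL1 probe set averaged 282 with estrogen and 312 with both hormones, against 294 with placebo. CLU, the lipoprotein clusterin, averaged 6337 ± 894, 7314 ± 1415 and 7032 ± 426 in the hormone groups, against 6946 ± 1665 with placebo, and the receptor gene LRP1 averaged 828 ± 44.1, 596 ± 204 and 790 ± 134, against 749 ± 119.

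Among the APP-binding adaptors, APBB1, which binds the tail of APP, averaged 492 ± 289, 580 ± 94.7 and 528 ± 149, against 492 ± 11.5 with placebo. APPBP2, another protein of that tail, read 45.3, 48.6 and 43.2 with progesterone on its dimmer probe set, against 104.5, 91.0 and 68.5 with placebo (log2 difference −0.84 ± 0.19 SE, limma adjusted p = 0.268), and its brighter probe set gave −0.11.

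Of the tau kinases, phosphatases and microtubule proteins, 19 genes were tested with 33 probe sets, and arrays lay wholly above placebo for 2 of these under estrogen, 7 under progesterone and 5 under the combination (beside 2.84%, 8.56% and 4.3% of all tested probe sets), and wholly below for 0, 1 and 0 (beside 3.29%, 8.1% and 4.62%). CDK5, a neuronal kinase that phosphorylates tau, read 524, 538 and 456 with estrogen, 574, 535 and 486 with progesterone, 555, 566 and 558 with both hormones, and 324, 459 and 457 with placebo on its dimmer probe set. After normalization all 9 hormone arrays lay above the placebo arrays, as they did for 0.292% of tested probe sets, while on the deposited scale estrogen array 3 fell just inside the placebo range. The log2 differences were 0.31, 0.38 and 0.46 (SE 0.17 each, limma adjusted p = 0.9999, 0.583 and 0.999), and without placebo array 1 they were 0.16, 0.23 and 0.31. The brighter CDK5 probe set gave 0.19, 0.32 and 0.34, and 0.019, 0.15 and 0.16 without placebo array 1. Of the 33 probe sets, 2 lay above placebo on all 9 hormone arrays after normalization: the dimmer CDK5 one and that of FKBP4, outside the naming rule. FKBP4 gave 0.31, 0.41 and 0.40 (limma adjusted p = 0.9999, 0.619 and 0.999), and 0.34, 0.44 and 0.43 without placebo array 1. On the deposited scale it overlapped too, with 1228 on estrogen plus progesterone array 2 and 1230 on placebo array 1.

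GSK3B, another tau kinase, read 236.5, 207 and 216 with progesterone on its brighter probe set, against 98.0, 166 and 161 with placebo, and 176, 148 and 176 against 48.1, 100.2 and 106 on its dimmer one. The log2 differences were 0.64 ± 0.34 and 0.97 ± 0.27 (SE, limma adjusted p = 0.673 and 0.353), and 0.44 and 0.68 without placebo array 1. CDK5R1, the activator of CDK5, averaged 449 ± 63.6, 460 ± 14.7 and 501 ± 26.9, against 479 ± 58.2 with placebo on its brighter probe set. MAP2, the microtubule protein of dendrites, averaged 434 ± 187, 633 ± 279 and 554 ± 142, against 352 ± 97.4 on its brightest probe set. Its other probe sets averaged 293 ± 87.0, 428 ± 202 and 371 ± 31.3, against 350 ± 60.4, and 253 ± 48.4, 377 ± 136 and 334 ± 41.5, against 291 ± 83.5, so that with estrogen they lay below the placebo mean and the brightest above it. All hormone groups overlapped placebo on the 3 MAP2 probe sets.

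Of the relatives and partners of the prion protein, 8 genes were tested with 15 probe sets. Arrays lay wholly above placebo for 0, 2 and 2 of these with estrogen, progesterone and both hormones (beside 2.84%, 8.56% and 4.3% of all tested probe sets), and wholly below for 1, 1 and 2 (beside 3.29%, 8.1% and 4.62%). The median log2 differences were −0.17, −0.28 and 0.058, beside −0.0047, 0.0022 and −0.0031 over all tested probe sets. FYN and NCAM1 hold 4 of the 15 probe sets each, and with progesterone these differed in direction. From brightest to dimmest, FYN gave 0.32, 0.26, −0.44 and −0.45, and NCAM1 gave 0.27, −0.45, 0.84 and −0.49. No single-symbol probe set stood for PRND, the doppel gene beside PRNP, or for RPSA, the laminin receptor that binds the prion protein. Other genes of neurodegeneration (24 genes, 28 probe sets) had medians of −0.011, −0.030 and 0.0082.

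**Figure D5:**
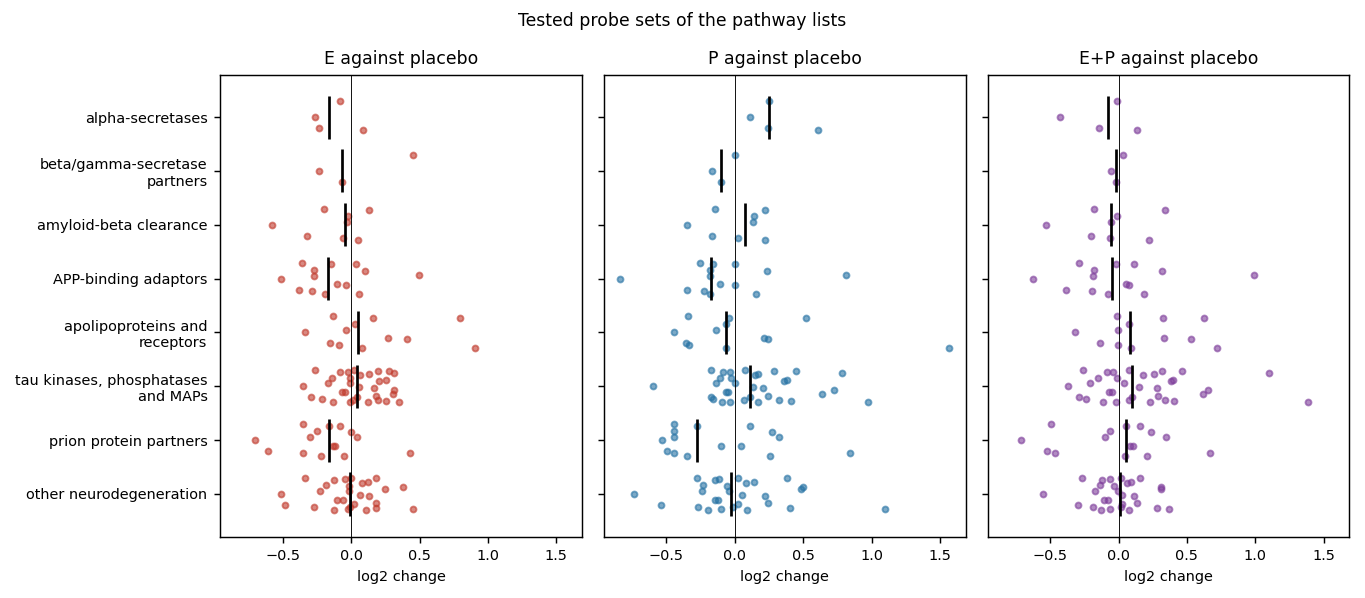
Log2 difference from placebo of the 117 tested probe sets of the 8 gene lists, 1 point per probe set, 1 row per list and a panel each for estrogen (E), progesterone (P) and both hormones (E+P), with a bar at each list's median. None passed the adjusted threshold, and the medians over all lists lie at −0.026, −0.015 and 0.020.

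The 5 genes whose probe sets followed PRNP most closely over the 12 arrays were RRAGB, a small GTPase (Pearson's r of normalized log2 values 0.87), ELL2, a transcription elongation factor (0.84), TSC2, tuberin (0.81), PLA2G1B, a secreted phospholipase (0.81), and FMR1, an RNA-binding protein of neurons (0.80). RRAGB averaged 179 ± 43.4, 204 ± 36.7 and 178 ± 37.6 with estrogen, progesterone and both hormones, against 296 ± 135 with placebo. TSC2 averaged 257 ± 23.3, 278 ± 38.1 and 217 ± 31.1, against 328 ± 18.1 with placebo. The 3 placebo arrays hold the 3 highest PRNP values, so genes that are high in placebo rank high by this measure, and the coefficients are a description with no test. Of the members, PSEN2 had an r of 0.48 with PRNP, APLP1 0.31, APLP2 0.25, APOE −0.34, APP −0.46 and MAPT probe set 1 −0.57.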

How the data were processed

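Each deposited value is the linear intensity of a probe set; judging from the values, the authors had scaled every array to a trimmed mean of 200.1. The software that summarised the probes is not given in the sources used here, no detection calls were used, and the depth of an array has no count behind it, so the number of arrays limits the precision. Per the labels' protocols, RNA was biotin-labelled with an Enzo kit.

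Probe sets were named through GEO's platform table, with symbols updated by gene identifier. Of 12558 probe sets other than controls, 10943 had 1 symbol, 545 several and 1070 none. The members and lists were chosen with earlier results of these data known. The deposited intensities were turned into log2(intensity + 8.26), the offset being the pooled 10th percentile, and quantile normalized across arrays, since array medians spanned 0.20 on the log2 scale. A difference on this scale understates the change of dim probe sets. Ranked by their mean, the dimmest 40% (5023) were not tested. Groups were fitted with limma 3.58.1 (R 4.3.3, lmFit and eBayes, 12 arrays sharing 1 spread estimate), 2-sided, and p-values were adjusted by Benjamini-Hochberg across all 7535 with a threshold of 0.05. The fit was also run on simulated data with independent noise for each probe set and set changes of 1 log2 unit or more. That run held no array-wide effects, so it does not bear on smaller differences or on arrays that stand apart. Overlap between groups was judged on normalized values, and intensities are printed as deposited. Each gene of a list entered with all its tested probe sets.

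Named were all members, 19 pathway genes fixed by role, list genes past the threshold, and the 5 probe sets most like PRNP. The alternatives were values as deposited, another offset or filter, fitting only the groups compared, a replicate block, a trended robust variance, and leaving out each array or both arrays of high ribosomal signal. Same-numbered monkeys of different groups were checked for shared deviations: r lay between −0.22 and 0.41 over 18 pairs and exceeded 0.1 in 5. Over all groups the numbers were not taken as pairs. Between the combined and estrogen groups every same-numbered pair exceeded 0.1 (0.41, 0.30 and 0.13), the pair numbered 1 being the arrays of high ribosomal signal, so that comparison was also read with the replicate number as a block. The data contain 1 array per monkey, and the errors cover monkey and array together.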

Additional observations from a re-analysis of the deposited data

How the results depend on the processing

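No member other than PRNP passed the adjusted threshold under any of 130 alternatives of the member counts, and the lowest adjusted p of a member was 0.128. Of 888 recomputed log2 differences, 22 turned direction, 18 of these on leaving out 1 array; they belong to 12 differences of at most 0.29 in size as reported. On the values as deposited, APLP1 with progesterone gave 0.12. Without both arrays of high ribosomal signal, APLP2 with estrogen gave −0.025, MAPT probe set 3 with estrogen 0.24, and PRNP for estrogen against progesterone 0.014. Leaving out each array in turn gave ranges of −0.093 to 0.057 (APLP1, progesterone), −0.029 to 0.056 (APLP2, estrogen), −0.15 to 0.018 (APLP2, both hormones), −0.16 to 0.0062 (APLP2, both hormones against estrogen), −0.21 to 0.041 (PRNP, estrogen against progesterone) and −0.16 to 0.48 (SORL1 brighter probe set, progesterone). For MAPT the ranges were −0.049 to 0.40 and −0.089 to 0.36 (probe set 1, estrogen and progesterone), −0.20 to 0.47 (probe set 2, estrogen), −0.47 to 0.36 and −0.11 to 0.72 (probe set 3, estrogen and progesterone) and −0.28 to 0.085 (probe set 4, progesterone). The cause was not tested. Same-numbered arrays exceeded an r of 0.1 in every pair only between the combined and estrogen groups. There, differently numbered arrays did so too (0.21 for estrogen 3 with combined 2, 0.12 for estrogen 2 with combined 3). Same-numbered placebo and combined arrays gave 0.11, 0.088 and 0.10, so the rule rests on the cut. For both hormones against estrogen, with the replicate number as a block, 0 members other than PRNP passed. Each replicate number holds 1 array of every group, so the block cannot move a difference between groups, only its error. The differences of PRNP (−0.22) and APLP2 (−0.088) in that comparison are therefore the same with it by design. So are those of PRNP from placebo, −0.74, −0.69 and −0.97 with estrogen, progesterone and both hormones. In all comparisons 0 members other than PRNP passed, and their lowest limma adjusted p under the block was 0.304. The block changed no call. With 3 arrays a group and dim probe sets near background, small differences cannot be resolved.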

Other observations

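Some list genes outside the naming rule were picked out after their values were seen. GRN and MAP1B were taken for large differences from placebo, and SNCB and SNCG were not. The highest difference of the lists with progesterone was that of APOD, at 1.57 ± 0.87 (SE, limma adjusted p = 0.697). With progesterone ATN1 gave −0.74 ± 0.24 on its brighter probe set (SE, limma adjusted p = 0.432) and −0.13 on its dimmer one. GRN, which encodes the lysosomal growth factor progranulin, read 205, 160 and 82.3 with progesterone, against 54.6, 62.4 and 64.5 with placebo, while the estrogen arrays, which also lay above placebo, averaged 83.5 ± 12.6 and those of the combination 60.8 ± 14.1 (SD, n = 3 each). It did not pass (limma adjusted p = 0.313 for progesterone against placebo). Microglia express GRN strongly. The summed signal of 7 of 10 microglial markers was 1218 to 1299 with estrogen, 1328 to 1867 with progesterone and 1186 to 1406 with both hormones, against 1302 to 1545 with placebo. Of their 8 probe sets, 6, 2 and 5 were lower than placebo with estrogen, progesterone and both hormones. The part of these markers in the GRN values was not tested.

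MAP1B, a microtubule protein of growing axons, read 1321, 1026 and 1849 with both hormones on its brightest probe set, against 354, 954 and 757 with placebo, and 336, 307 and 272 against 73.7, 123 and 142 on its dimmest, and neither passed (limma adjusted p = 0.999 each). Its other probe set read 745, 703 and 771, against 752, 877 and 741. The genes SNCB and SNCG overlapped placebo in every hormone group, except that the estrogen arrays of SNCB lay above placebo after normalization and not on the deposited scale (limma adjusted p = 0.9999): SNCB averaged 1505 ± 54.7, 1318 ± 109 and 1369 ± 334 with estrogen, progesterone and both hormones, against 1415 ± 133 with placebo, and SNCG averaged 2843 ± 758, 2676 ± 377 and 2902 ± 698, against 2809 ± 502.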
